A study of Homo sapiens with 4 samples.

Results

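Genes of the transforming growth factor beta (TGF-beta) and SMAD pathway were read in RNA-seq data from SK-N-SH, a neuroblastoma line of human origin that grows as a mixture of adrenergic, neuroblast-like cells and mesenchymal, adherent ones. The 9 genes, chosen by name, were the ligands TGFB1 and TGFB2, the receptors TGFBR1 and TGFBR2, the transducers SMAD2, SMAD3 and SMAD4, and the inhibitors SMAD7 and SKIL, and all 9 of 9 were among the 24014 genes of the count table. The study asked which transcripts change when the long non-coding RNA AP1AR-DT is raised. SMAD3, listed as higher, was among the candidate genes it carried over from mouse, organoid and genome-wide association data. Of these candidates, the paper reports a significant reduction in SK-N-SH cells for NEGR1 only. The control group (2 libraries) was SK-N-SH cells labelled wild type and given an empty lentivirus vector without insert. The AP1AR-DT_OE group (2 libraries) was the same line given a recombinant lentivirus with the AP1AR-DT cDNA, and both groups therefore carried a lentiviral vector. All data come from 1 cell line, neither the age of the cultures nor the time after infection is in the labels, and nothing says that the libraries of a group were separate cultures, so p-values measure only the spread between these libraries, which may be technical.

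TGF-beta ligands are made as latent complexes, and once released they bring a type II receptor and a type I receptor together at the cell surface. The type I receptor phosphorylates SMAD2 and SMAD3, which join SMAD4, enter the nucleus and act on target genes through short DNA elements that contain the letters CAGAC. SMAD7 and SKIL are both induced by the signal and act back on it, SMAD7 at the receptor and SKIL on the SMAD complex. In neuroblastoma, mesenchymal cultures are known for high expression of matrix and contractile genes of the kind this pathway drives.

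The libraries held between 21988065 and 26184599 counts, and between 19833 and 21280 genes had a count above 0. AP1AR-DT itself, on chr4:112229561-112231596 (GRCh38), had 3 and 18 counts in control 1 and 2 and 680 and 1065 counts in AP1AR-DT_OE 1 and 2, as labelled. Adrenergic markers (7 of 8 listed, TH was not analysed here) had summed normalized read counts of 21493 to 26691 in the controls and 23882 to 25558 in AP1AR-DT_OE, and mesenchymal markers (7 of 8, without MEOX2) of 105746 to 125360 and 110177 to 122875. VIM alone, at 67917.4 to 93085.9 over the libraries, made up most of each mesenchymal sum, so the sums say little about the other markers. PRRX1, a mesenchymal transcription factor, departed most, with normalized read counts of 2769.9 and 11357.9 in control 1 and 2 and 1240.6 and 2246.1 in AP1AR-DT_OE 1 and 2 (log2 fold change -2.02, SE 0.61, DESeq2 unadjusted p = 0.000987, DESeq2 adjusted p = 0.431). The other mesenchymal markers analysed had log2 fold changes between -0.20 (YAP1) and 0.12 (VIM), so PRRX1 does not stand for the list. Epithelial and blood markers (3 of 5, without CDH1 and PTPRC) summed to 29 to 51. Libraries with the same replicate number resembled each other: genes with a transcript of higher GC content were lower in control 2 relative to control 1 (Spearman's rho across 13231 genes -0.79), and the pair of AP1AR-DT_OE libraries showed the same trend (rho -0.66). The labels do not call the replicate number a batch. For this reason each of the 9 genes is given below in all 4 libraries and, beside its fold change, as the log2 ratio of AP1AR-DT_OE over control within each number.

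For SMAD3, SMAD7 and SKIL 1 start region each is shown, because SMAD3 was the candidate and SMAD7 and SKIL are the pathway's own feedback genes. SMAD3 has 5 RefSeq promoters, SMAD7 has 3 and SKIL has 1. Each sequence is 300 bases from RefSeq (GRCh38.p14), 5′ to 3′ on the strand of the gene, from upstream of the transcript start to just past it, and capitals mark CAGAC or its reverse complement GTCTG. The positions are chr15:67065352-67065651 (plus strand) for SMAD3, chr18:48950916-48951215 (minus strand) for SMAD7 and chr3:170357465-170357764 (plus strand) for SKIL.
SMAD3: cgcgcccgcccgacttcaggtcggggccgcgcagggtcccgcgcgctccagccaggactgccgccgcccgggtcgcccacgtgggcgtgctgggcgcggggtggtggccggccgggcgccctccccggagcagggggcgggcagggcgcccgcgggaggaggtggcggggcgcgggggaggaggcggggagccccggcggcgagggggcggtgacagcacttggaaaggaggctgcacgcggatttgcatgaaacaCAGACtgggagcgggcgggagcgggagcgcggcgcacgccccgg
SMAD7: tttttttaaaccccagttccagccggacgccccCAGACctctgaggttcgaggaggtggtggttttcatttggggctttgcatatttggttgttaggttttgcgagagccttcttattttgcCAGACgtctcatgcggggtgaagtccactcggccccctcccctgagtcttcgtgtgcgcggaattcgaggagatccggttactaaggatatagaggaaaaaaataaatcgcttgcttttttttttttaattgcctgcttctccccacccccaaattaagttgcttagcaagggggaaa
SKIL: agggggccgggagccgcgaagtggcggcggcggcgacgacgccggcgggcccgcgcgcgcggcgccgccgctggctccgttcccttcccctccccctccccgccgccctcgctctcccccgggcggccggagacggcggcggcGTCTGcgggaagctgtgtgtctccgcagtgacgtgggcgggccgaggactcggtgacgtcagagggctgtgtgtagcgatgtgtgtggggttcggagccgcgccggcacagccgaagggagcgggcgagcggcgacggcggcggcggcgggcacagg
In the SMAD7 region CAGAC began 217 and 128 bases before the start, in the SKIL region GTCTG began 107 bases before it, and in the SMAD3 region CAGAC began 6 bases past it. These letters are common: on either strand they occur in 15894 of 35116 RefSeq promoters of this length (45.3%). The 9 genes matched 24 promoters. The letters were in 3 of 5 for SMAD3, 2 of 3 for SMAD7, 4 of 8 for TGFBR1 and the only 1 each for SKIL and TGFB2. They were in none for SMAD2, SMAD4, TGFB1 and TGFBR2, so the regions shown are not a picture of all 24. The longer palindrome GTCTAGAC, to which SMAD3 and SMAD4 bind, was in none of the 24, and was in 71 of the 35116 (0.202%). A match is a description of the letters only.

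SMAD3, the receptor-activated transducer on chr15:67063763-67195173, had normalized read counts of 4133.2 in control 1, 2733.0 in control 2, 4105.7 in AP1AR-DT_OE 1 and 2736.4 in AP1AR-DT_OE 2. The number 1 libraries were both high and the number 2 libraries both low, and the groups overlapped. The means were 3433.1 ± 990.1 (SD, n = 2) in control and 3421.1 ± 968.2 (SD, n = 2) in AP1AR-DT_OE. The log2 fold change was -0.00 (SE 0.47, 95% interval -0.92 to 0.91), with an unadjusted p of 0.992 and an adjusted p of 1 (DESeq2 Wald test, Benjamini-Hochberg). Within number 1 the log2 ratio was -0.01 and within number 2 it was 0.00, so SMAD3 moved less with AP1AR-DT than between the libraries of either group, where number 2 over number 1 was -0.60 in control and -0.59 in AP1AR-DT_OE. The interval, from the fit without the replicate number as a term, leaves room for a change of close to 1 log2 unit in either direction. With that term the log2 fold change was -0.0039 (DESeq2 unadjusted p = 0.985). In these bulk samples less RNA per cell and fewer cells of a type cannot be told apart.

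**Figure D1:**
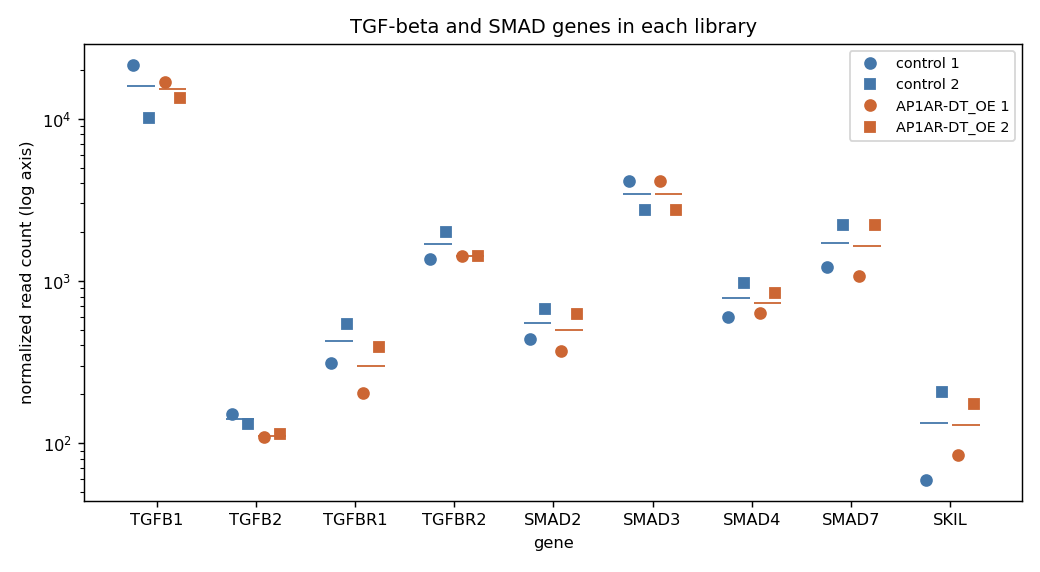
Normalized read count (log axis) of the 9 TGF-beta and SMAD genes, with 1 point per library (circles replicate number 1, squares number 2, blue control, orange AP1AR-DT_OE) and short lines at the group means. TGFB1 lies highest, at 10079.7 to 21503.0, SMAD3 has nearly equal values in the libraries of the same number, and TGFB2 alone has both AP1AR-DT_OE points below both controls. The points carry no correction for GC content, after which the TGFB2 groups overlapped and those of TGFBR1, TGFBR2 and SKIL did not.

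At an adjusted p under 0.05, 0 of the 9 genes were called, against 33 of 24014 genes tested in the whole table (0.137%), and 0 had an unadjusted p under 0.05, against 0.816% of the table. The edgeR quasi-likelihood test called 0 genes in the whole table, the 9 included, and of the 112 genes it gave an unadjusted p under 0.05 none was among the 9. All 9 log2 fold changes lay at or below 0 in the DESeq2 fit, from -0.52 to -0.00 with a median of -0.10, beside a median of -0.02 over the 13298 genes whose mean normalized read count was 50 or more, and those of TGFB1 and SKIL turned positive once the replicate number was a term of the fit (0.03 and 0.12), TGFB1 being negative again (-0.03) where a GC correction was added to it. Before any GC correction only TGFB2 had AP1AR-DT_OE libraries that did not overlap the controls, 1 of 9 against 9.45% of the 13298 genes. After the GC correction the TGFB2 groups overlapped, while those of TGFBR1 and TGFBR2 (both lower in AP1AR-DT_OE) and SKIL (higher) did not. For TGFBR2 the gap was small (-0.03 within number 1). The share of all genes that lay apart after the correction was not computed. The log2 ratio, without a GC correction, had the same sign in both replicate numbers for 4 of 9 genes (SMAD2, SMAD7, TGFB2 and TGFBR1, all lower), against 38.1%. After the correction SMAD2 (-0.37 and 0.18) and TGFB2 (-0.58 and 0.01) differed in sign between the numbers, while SMAD7 and TGFBR1 stayed lower in both. TGFBR2 (-0.03 and -0.41) was then lower in both, SMAD3 (-0.00 and -0.06) lay at or just below 0, and SKIL (0.28 and 0.17) was higher in both. The share of all genes with the same sign after the correction was not computed, so these signs are not set against the table. The libraries of number 2 did not overlap those of number 1 for 8 of 9 genes, against 80.5%. Both shares of the last comparison are near each other, so the split by number is not particular to these genes.

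**Figure D2:**
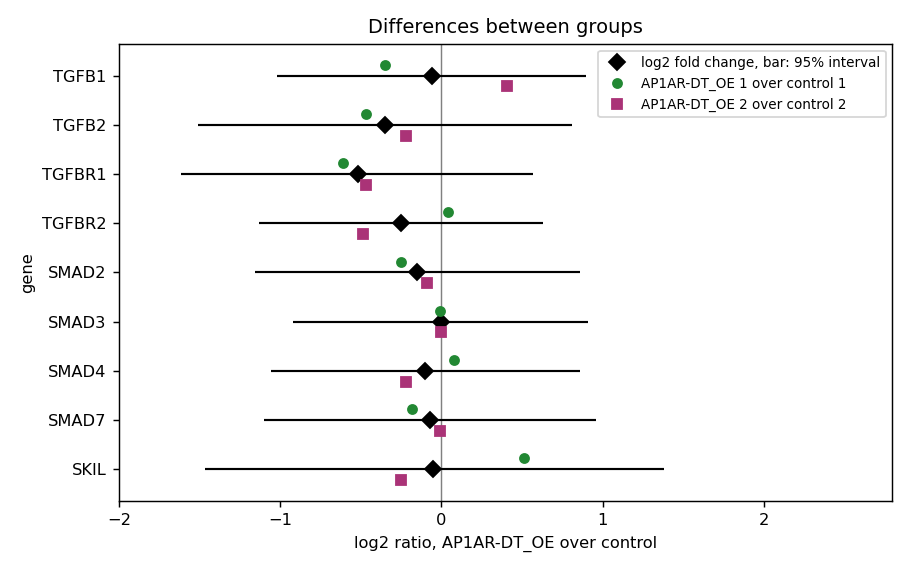
Log2 ratio of AP1AR-DT_OE over control (x axis) for the 9 genes (y axis), with diamonds for the DESeq2 log2 fold change, bars for its 95% interval, circles for the ratio within replicate number 1 and squares for that within number 2. Every interval spans 0, SMAD3 lies at -0.00, and circle and square lie on opposite sides of 0 for TGFB1, TGFBR2, SMAD4 and SKIL, and at -0.01 and 0.00 for SMAD3.

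The ligand TGFB1, on chr19:41301587-41353922, was the most abundant of the 9. Its normalized read counts were 21503.0 and 10079.7 in control 1 and 2 and 16919.6 and 13356.6 in AP1AR-DT_OE 1 and 2. Both AP1AR-DT_OE values lay between those of the controls. TGFB1 thus had a log2 fold change of -0.06 (SE 0.49, 95% interval -1.02 to 0.90, unadjusted p = 0.901, DESeq2 adjusted p = 1), with -0.35 within number 1 and 0.41 within number 2. TGFB1 has the highest transcript GC content of the 9 (63.6%), and across all genes AP1AR-DT_OE over control also ran in opposite directions with GC content within the numbers (rho -0.34 in number 1 and 0.64 in number 2). Its exons overlap those of HNRNPUL1 on the other strand, and whether counting used strand is not stated, so reads of this pair cannot be told apart.

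TGFB2, the ligand on chr1:218345336-218444619, was far scarcer. It had 150.3 and 131.9 normalized read counts in the controls against 108.6 and 113.1 in AP1AR-DT_OE. In these values, without a GC correction, both AP1AR-DT_OE libraries were below both controls, and the values within a group were close. Its log2 fold change was -0.35 (SE 0.59, 95% interval -1.51 to 0.81, unadjusted p = 0.558, DESeq2 adjusted p = 1), with -0.47 within number 1 and -0.22 within number 2. The counts behind these values were 99 to 171, and 1 read pair was worth about 4 counts. After the GC correction the log2 ratios of TGFB2 were -0.58 within number 1 and 0.01 within number 2, and its groups overlapped. TGFB2-AS1, an antisense RNA that overlaps TGFB2 exons, had 0 to 9 counts in a library.

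TGFBR1 encodes the type I receptor, the kinase that phosphorylates SMAD2 and SMAD3, and lies on chr9:99104038-99154192. Its normalized read counts were 309.8 and 542.3 in control 1 and 2 and 202.9 and 391.1 in AP1AR-DT_OE 1 and 2. AP1AR-DT_OE was lower than the control of the same number in both pairs. Without a GC correction AP1AR-DT_OE 2 was above control 1. After the GC correction the log2 ratios of TGFBR1 were -0.76 within number 1 and -0.17 within number 2. Both AP1AR-DT_OE libraries then lay below both controls. The log2 fold change, without a GC correction, was the lowest of the 9, at -0.52 (SE 0.56, 95% interval -1.62 to 0.57, unadjusted p = 0.351, DESeq2 adjusted p = 1), with -0.61 within number 1 and -0.47 within number 2. TGFBR1 did not pass the test in any of the 14 alternative analyses, in which its lowest unadjusted p was 0.0511.

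TGFBR2, the type II receptor on chr3:30606601-30694142, binds the ligand first and activates the type I receptor. It had 1372.4 and 1998.7 normalized read counts in the controls against 1413.9 and 1421.3 in AP1AR-DT_OE. Control 2 stood above the other 3 libraries, which lay close together. For TGFBR2 the log2 fold change was -0.25 (SE 0.45, 95% interval -1.13 to 0.63, unadjusted p = 0.58, DESeq2 adjusted p = 1), with 0.04 within number 1 and -0.49 within number 2. Without control 2 it was 0.06.

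SMAD2, the second receptor-activated transducer (chr18:47808957-47931146), had normalized read counts of 440.8 and 666.5 in control 1 and 2 and 371.8 and 626.3 in AP1AR-DT_OE 1 and 2. SMAD4, the common partner of both (chr18:51028394-51085045), had 597.9 and 976.6 in the controls against 631.8 and 839.7 in AP1AR-DT_OE. For both genes the number 2 libraries were the higher ones in each group, opposite to SMAD3, and the groups overlapped. The log2 fold change was -0.15 for SMAD2 (SE 0.51, 95% interval -1.16 to 0.86, unadjusted p = 0.77) and -0.10 for SMAD4 (SE 0.49, 95% interval -1.06 to 0.86, unadjusted p = 0.841), both with a DESeq2 adjusted p of 1. Within number 1 and number 2 the log2 ratios were -0.25 and -0.09 for SMAD2 and 0.08 and -0.22 for SMAD4. A readthrough gene that shares exons with SMAD4 on the same strand had at most 4 counts in a library.

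SMAD7, the inhibitory SMAD that acts on the activated receptor (chr18:48919853-48950965), had 1217.5 and 2219.3 normalized read counts in control 1 and 2 and 1073.9 and 2209.4 in AP1AR-DT_OE 1 and 2. The number 2 libraries of both groups were nearly equal and stood well above the number 1 libraries. The log2 fold change was -0.07 (SE 0.53, 95% interval -1.10 to 0.96, unadjusted p = 0.9, DESeq2 adjusted p = 1), with -0.18 within number 1 and -0.01 within number 2.

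SKIL, which encodes the SnoN repressor of SMAD complexes (chr3:170357678-170396835), had 59.2 and 207.5 normalized read counts in the controls against 84.5 and 174.7 in AP1AR-DT_OE. It varied most of the 9 between libraries of a group, with a log2 ratio of number 2 over number 1 of 1.81 in control and 1.05 in AP1AR-DT_OE. Between the groups its log2 fold change was -0.05 (SE 0.73, 95% interval -1.47 to 1.38, unadjusted p = 0.951, DESeq2 adjusted p = 1), with 0.51 within number 1 and -0.25 within number 2. SKIL has the lowest transcript GC content of the 9 (33.56%), and its counts were 52 to 269 in a library.

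**Figure D3:**
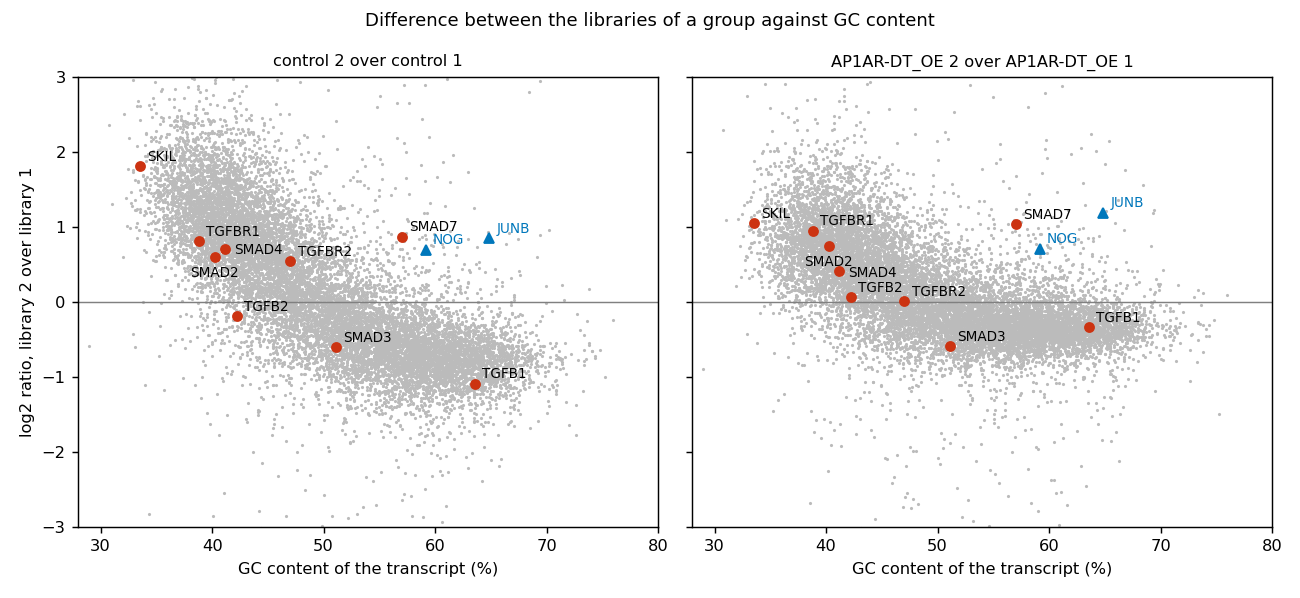
Log2 ratio of normalized read counts in library 2 over library 1 of a group (y axis, left control, right AP1AR-DT_OE) against transcript GC content in percent (x axis), with grey points for genes whose mean normalized read count was 50 or more, red circles for the 9 genes and blue triangles for JUNB and NOG. The grey cloud falls from left to right in both panels, SKIL (33.56% GC) lies at its upper left and TGFB1 (63.6% GC) at its lower right, and SMAD7 lies above the cloud at 0.87 and 1.04. A few genes beyond the axis range are not drawn.

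Across the 9 genes the difference between the libraries of a group followed GC content as it did in the whole table (rho -0.62 over 9 genes in each group, a description of genes that share the same 4 libraries). SMAD7 and TGFB2 departed from this trend. SMAD7, with a GC content of 57.05%, was higher in number 2, at 0.87 in control and 1.04 in AP1AR-DT_OE, whereas the 852 genes within 1 percentage point of its GC content had medians of -0.64 and -0.33. After a correction for GC content the values of SMAD7 were 1.49 and 1.35, and 42 of 13206 genes (0.318%) were as high or higher in both groups. TGFB2, with a GC content of 42.19%, was at -0.19 in control and 0.06 in AP1AR-DT_OE before the correction, and at -1.10 and -0.50 after it. The other 7 genes lay between -0.50 and 0.27 in control and between -0.43 and 0.18 in AP1AR-DT_OE after the correction, SMAD3 at -0.38 and -0.43. What differs between the libraries of number 1 and number 2 beyond GC content was not tested.

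Levels were compared between genes as normalized read counts per kilobase of the canonical transcript. TGFB1 was highest, with 3625.8 to 7734.9 per kilobase over the 4 libraries, and did not overlap the next gene. SMAD3 (422.8 to 639.4), SMAD7 (321.4 to 664.3) and TGFBR2 (303.0 to 441.2) followed, each overlapping its neighbour. SMAD4 (68.2 to 111.3) and TGFBR1 (31.3 to 83.5) overlapped each other and lay below TGFBR2. TGFB2 (18.5 to 25.6), SKIL (8.28 to 29.0) and SMAD2 (10.7 to 19.2) closed the order, each overlapping the others. The canonical SMAD2 transcript is 34626 bases long in the annotation used, which lowers its level per kilobase. Of the receptor-activated transducers, SMAD3 was thus the more abundant in each library on both scales.

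The genes whose profile over the 4 libraries was nearest to that of SMAD3, by the Euclidean distance between centred log2(normalized read count + 1) values among 13297 genes, were PIGUP1 (distance 0.021), FKBP9 (0.0223) and DEDD (0.0256). FKBP9, for example, had 12867.6 and 8624.9 normalized read counts in the controls against 13031.1 and 8678.8 in AP1AR-DT_OE, the same fall from number 1 to number 2 in both groups. Among the other 8 pathway genes TGFB1 was nearest (0.393) and SKIL farthest (2.05).

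Genes around the 9 were read from 6 lists by role, 66 genes of which 65 were analysed (all but BMP4). Of these, 0 were called by DESeq2 and 0 had an unadjusted p under 0.05, beside 0.137% and 0.816% of the whole table, so that 0 of 65 is near both shares. By edgeR, with 0 calls in the whole table, 0 of the 65 had an unadjusted p under 0.05. The 56 whose mean normalized read count was 50 or more were split evenly, 27 higher and 29 lower in AP1AR-DT_OE, with a median log2 fold change of -0.02 and a range from -0.66 to 0.53. The AP1AR-DT_OE libraries lay apart from the controls for 6 of the 56, 2 higher and 4 lower, beside the 9.45% of all genes given above.

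Among the ligands and the genes for their latency and processing, 10 of 11 passed the level of 50, with 4 higher and 6 lower. LRRC32, which holds latent TGF-beta at the cell surface, was the highest, at 135.5 and 37 normalized read counts in the controls against 130.5 and 101.2 in AP1AR-DT_OE (log2 fold change 0.43, SE 0.74). Control 2 alone was low for LRRC32, and without it the log2 fold change was -0.22. TGFB3, the third ligand, was the lowest of this list, at 108.2 and 96.4 in the controls against 81.2 and 56.6 in AP1AR-DT_OE (log2 fold change -0.57, SE 0.67, unadjusted p = 0.393, DESeq2 adjusted p = 1), with no overlap between the groups.

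Only 3 of 7 other receptors reached that level. The co-receptor ENG (endoglin) had a log2 fold change of 0.05 (SE 0.46), and the activin receptor ACVR2B one of -0.34 (SE 0.59), from 144.6 and 153.5 normalized read counts in the controls to 102.0 and 134.0 in AP1AR-DT_OE. ACVR2B did not overlap between the groups, by a gap smaller than the difference between the AP1AR-DT_OE libraries. TGFBR3, the co-receptor betaglycan, had 13 counts in control 2 and 0 in the other libraries, where a count of 0 allows up to 12. Of the 5 adaptors and co-activators, 1 was higher and 4 were lower, with a median log2 fold change of -0.42. ZFYVE9, the SARA adaptor that brings SMAD2 and SMAD3 to the receptor, was lowest, at 95.7 and 132.7 in the controls against 79.0 and 65.5 in AP1AR-DT_OE (log2 fold change -0.66, SE 0.65, unadjusted p = 0.311, DESeq2 adjusted p = 1). DAB2, an endocytic adaptor, was highest at 0.17 (SE 0.82).

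The 13 inhibitors, which include SMAD6, the SMURF ubiquitin ligases and the extracellular activin binders, stayed within a narrow range, 7 higher and 6 lower with a median of 0.02. FSTL3, a secreted activin antagonist, had the highest log2 fold change at 0.12 (SE 0.45), and SMURF2, which targets receptors and SMADs for degradation, the lowest at -0.24 (SE 0.53). SMURF2 had 375.8 and 805.3 normalized read counts in the controls against 420.1 and 582.6 in AP1AR-DT_OE, so that its values in AP1AR-DT_OE lay between those of the controls.

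Of the 15 target genes 14 reached the level of 50, with 10 higher and 4 lower and a median log2 fold change of 0.05. TAGLN, which encodes the smooth muscle actin-binding protein transgelin, was the highest, with 8801.7 and 5818.6 normalized read counts in control 1 and 2 and 11714.8 and 9390.4 in AP1AR-DT_OE 1 and 2. Both AP1AR-DT_OE libraries exceeded both controls. The log2 fold change was 0.53 (SE 0.45, unadjusted p = 0.238, DESeq2 adjusted p = 1), with 0.41 within number 1 and 0.69 within number 2, and TAGLN passed the test only in the fit with both a GC correction and the replicate number as a term (DESeq2 adjusted p = 0.00262). The unadjusted p of TAGLN was 0.00501 with the replicate block alone (DESeq2), 0.0168 with the GC correction alone (DESeq2) and 0.0187 in the edgeR test with the block. In the remaining fits with all libraries it was 0.176 (edgeR quasi-likelihood test) or higher. HMGA2, a chromatin factor induced by the pathway, was lowest at -0.33 (SE 0.45), with 1239.2 and 1680.1 in the controls against 1042.0 and 1282.4 in AP1AR-DT_OE.

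In the BMP branch, whose receptors signal through SMAD1, SMAD5 and SMAD9 and share SMAD4, 11 of the 14 genes analysed reached the level of 50, with 4 higher and 7 lower and a median of -0.08. NOG, the secreted BMP antagonist noggin, was highest at 0.19 (SE 0.48), and BMPR1A, a type I BMP receptor, lowest at -0.45 (SE 0.68). BMPR1A had 156.0 and 428.1 normalized read counts in the controls against 105.3 and 321.6 in AP1AR-DT_OE, and it was higher in number 2 in each group. The numbers did not overlap for 8 of the 11 genes, beside 80.5% of all genes, and all 8 were higher in number 2, as were 5170 of the 10706 genes apart by number in the whole table. All of these 8 but NOG (59.17%) had transcripts of 36.94% to 43.22% GC, below the median of 49.5%. After the GC correction BMPR2, SMAD1 and GREM1 were lower in number 2 in both groups, SMAD5 in AP1AR-DT_OE and SMAD9 in control. BMPR1A, ID2 and NOG stayed higher in number 2 in both groups.

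**Figure D4:**
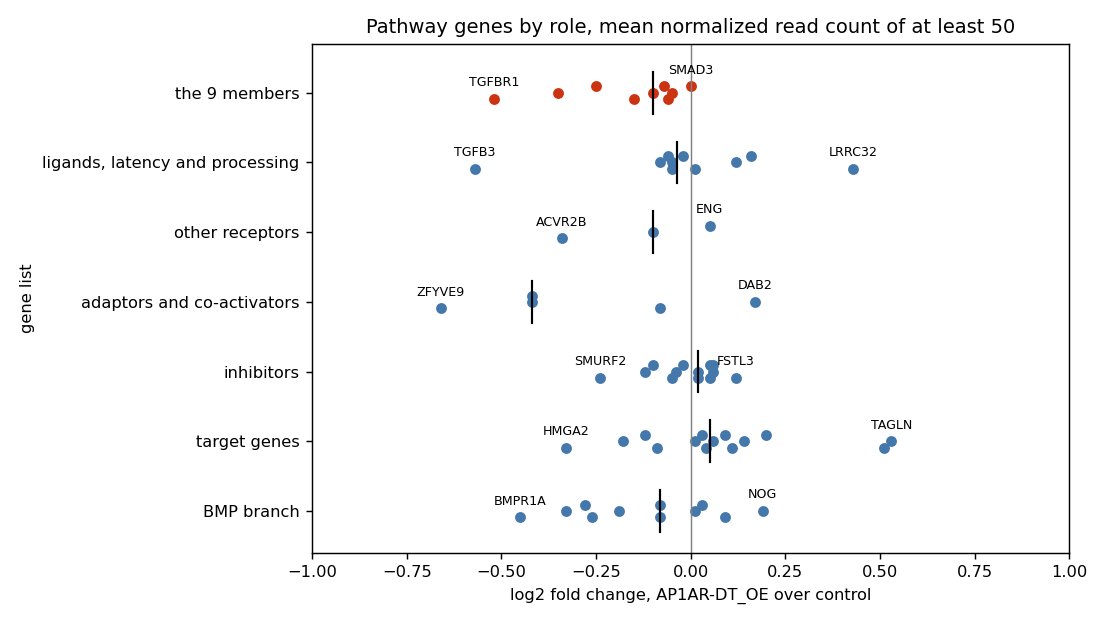
Log2 fold change of AP1AR-DT_OE over control by DESeq2 (x axis) for the 9 genes (red) and for the genes of 6 further lists whose mean normalized read count was 50 or more (blue), in rows by role, with a black line at each row's median. TAGLN (0.53) and LRRC32 (0.43) lie farthest to the right among the labelled genes and ZFYVE9 (-0.66) farthest to the left, and 0 of the points passed the test.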

How the data were processed

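RNA was extracted with TRIzol and sequenced after an Illumina TruSeq RNA library preparation. Per the paper's methods the authors aligned 150-bp read pairs to hg19 with HISAT2 and derived read counts from StringTie output with its Python script, while the submitters' processing notes name TopHat2, HTSeq, Cuffdiff and edgeR, tools the paper gives for other samples. The annotation used for counting and the use of strand are not given in the sources used here. The deposited counts are whole numbers per gene with no normalization. The low values piled up at 4 (3287 entries, against 2136 at 3 and 1509 at 5), so 1 read pair was worth about 4 counts. For a count of 0 the upper limit was set at 3 read pairs, that is 12 counts. This limit covers counting error alone, because PCR copies of a molecule are not independent. The deposited table also holds fold changes, p-values and adjusted p-values from the authors' DESeq2 and edgeR tests, which were not used. Coordinates are those of the deposited table, whose gene positions match GRCh38. Libraries were grouped and numbered by their titles. For AP1AR-DT_OE 2 the labels of genotype and treatment give an RNA name whose final number differs from that in the title. The title was followed, and AP1AR-DT had 1065 counts in this library. Whether the other name stands for a different RNA is not stated in the labels.

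The counts of all 24014 genes were fitted with DESeq2 1.42.0 in R 4.3.3, with median-of-ratios size factors and no covariate, as the study's use of DESeq2 implies. AP1AR-DT_OE was set against control by a two-sided Wald test, with Benjamini-Hochberg adjustment, default independent filtering and a call at an adjusted p under 0.05. Dividing counts by the size factor gave normalized read counts. Intervals are the log2 fold change ± 1.96 SE. Transcript GC content and length came from the canonical transcript in GENCODE v44 mapped to GRCh37, found for 23954 of 24014 genes (99.8%), and the GC correction removed a lowess trend (span 0.3) from each library. No library was a copy of another (chi-square per degree of freedom of 25.8 to 144 for the pairs compared). The fits were tested on simulated counts.

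The 9 genes and the gene lists were chosen with earlier results of these data known, and the figure that gave SMAD3 as a candidate also shows its fold change in these cells, although no value was taken from it. Named beside the 9 were every called gene and every gene with an unadjusted p under 0.05 of each list, the highest and the lowest log2 fold change of each list at a mean normalized read count of 50 or more, AP1AR-DT, and the 3 genes nearest to SMAD3. TGFBR3, JUNB, COL1A2 and ID2 were named after their values were seen. Alternatives were the quasi-likelihood test of edgeR 4.0.16, TMM factors, a filter of at least 10 counts in 2 libraries, the likelihood-ratio test, no independent filtering, a block for the replicate number, the GC correction with and without that block, counts divided by 4, and leaving out each library. The edgeR test with the block was added after seeing the data.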

Additional observations from a re-analysis of the deposited data

How the results depend on the processing

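The 9 genes had 0 calls and 0 unadjusted p-values under 0.05 in all 14 alternatives. The other pathway genes had 0 calls in 13 of the 14 and 1, TAGLN, in the GC correction with replicate block (log2 fold change 0.51, unadjusted p = 4.89e-06, DESeq2 adjusted p = 0.00262, and between 0.27 and 0.86 over all alternatives). Among all genes 33 were called in the reported analysis and 0 by edgeR's quasi-likelihood test, where 112 had an unadjusted p under 0.05. Dividing counts by 4 gave 15 calls, the GC correction 57, the GC correction with replicate block 60, and leaving out 1 library 45 to 90. The replicate block alone gave 37 calls, and the edgeR test with it 44. The labels say nothing of what the number stands for, so the libraries share only a number: deviations from the group means correlated at 0.49 between same-numbered libraries over 13284 genes, and at 0.24 after the GC correction.

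With the libraries kept, the log2 fold change of SMAD3 stayed between -0.03 and -0.00, and only TGFB1 and SKIL among the 9 changed sign: TGFB1 was 0.03 with the replicate block and 0.023 in the edgeR test with it but -0.03 in the GC correction with replicate block, and SKIL was 0.12 and 0.10 in these and 0.22 with the GC correction, with or without the replicate block. When each library was left out in turn, SMAD3 ranged from -0.33 to 0.32, SMAD2 from -0.59 to 0.19, SMAD4 from -0.41 to 0.31, SMAD7 from -0.69 to 0.44, TGFB1 from -0.50 to 0.59, TGFBR2 from -0.50 to 0.057 and SKIL from -0.68 to 1.14, none of them called, while TGFB2 (-0.43 to -0.25) and TGFBR1 (-1.09 to -0.05) stayed below 0. SMAD3 was positive without control 1 (0.32) and without AP1AR-DT_OE 2 (0.25). Among the other named genes LRRC32 ranged from -0.22 to 1.65, ENG from -0.27 to 0.48, DAB2 from -0.20 to 0.66, FSTL3 from -0.15 to 0.47, SMURF2 from -0.69 to 0.43, NOG from -0.23 to 0.59 and BMPR1A from -1.49 to 0.46, with a sign change each. A fit without a library leaves 1 group with a single library, which is then assumed to vary like the other group, and the pairing by number is broken in it. The causes of these changes were not tested. At 2 libraries a group the 95% intervals of the 9 genes reach 0.57 to 1.38 above 0 and -1.62 to -0.92 below it. Changes within a gene's own interval are therefore not excluded. These bounds are not limits of detection, and larger changes could also have gone uncalled.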

Other observations

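SMAD7 shared its split between replicate numbers with a target gene of the pathway and with a BMP antagonist. The 65 pathway genes compared here were the 9 and the list genes whose mean normalized read count was 50 or more, not the 65 list genes analysed above. Of them, 3 had a GC-corrected log2 ratio of number 2 over number 1 of at least 1 in both groups, SMAD7 (1.49 in control and 1.35 in AP1AR-DT_OE), JUNB (1.63 and 1.53) and NOG (1.40 and 1.03), beside 164 of 13206 genes in the whole table (1.24%). The 3 were picked out after their values were seen, so no test is given. JUNB, an AP-1 subunit and immediate early gene, had 8944.0 and 16142.8 normalized read counts in control 1 and 2 and 7707.9 and 17530.3 in AP1AR-DT_OE 1 and 2. NOG had 3140.0 and 5101.2 in the controls against 3560.5 and 5811.3 in AP1AR-DT_OE. For both genes the number 2 libraries stood above the number 1 libraries in each group, and their log2 fold changes between the groups were 0.01 and 0.19. None of the 65 genes was at -1 or below in both groups, beside 104 genes of the table (0.788%).

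COL1A2, a collagen chain and the only target gene close to TAGLN in its log2 fold change (0.51, SE 0.59), had 226.6 and 146.6 normalized read counts in the controls against 356.5 and 172.7 in AP1AR-DT_OE, so that its groups overlapped. ID2, a target of the BMP branch, had 1074.0 and 3667.2 in the controls against 1348.1 and 3153.3 in AP1AR-DT_OE, higher in number 2 in each group.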
